A study of Mus musculus with 4 samples.

Results

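Among the genes measured in Th2 cells treated with SH-2251, 9 transcription factor genes were examined that direct T cells into lineages other than Th2: Tbx21, Eomes, Hlx, Runx1, Runx3, Rora, Foxp3, Bcl6 and Ahr. They were found by their RefSeq accessions in the scanner files and make up 9 of 18539 named genes and 12 of 41174 probes. SH-2251 is a small thioamide-related compound, and the series asked which genes it alters in Th2 cells. Splenic CD4 T cells of female C57BL/6J mice were activated for 2 days with plate-bound anti-TCR-β at 3 µg/ml and anti-CD28 at 1 µg/ml, with IL-2 at 2.5 ng/ml and IL-4 at 10 ng/ml, and were then kept for 3 more days in both cytokines. All 4 cultures received these antibodies and cytokines. The control cultures had no SH-2251. The treated cultures had it in both phases, at doses that the labels give as 1 µM and then 1 mM. The study's methods give another dose, naïve CD4 T cells as the starting cells, and an anti-IFN-γ antibody among the Th2 conditions. Each culture was either left resting or restimulated for 4 h with plate-bound anti-TCR-β, which gives 4 conditions with 1 array each, and no source says how many mice gave the cells.

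A CD4 T cell that meets antigen takes up 1 of several fates, and each fate is tied to a master transcription factor. T-bet (Tbx21) drives the IFN-γ-producing Th1 fate and opposes the Th2 factor GATA3, RORα contributes to Th17 cells, Foxp3 drives regulatory T cells, and Bcl6 follicular helper T cells. Their transcripts are commonly measured in a Th2 culture to look for programmes of other lineages beside the Th2 one.

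The arrays were single-dye (Cy3) Agilent arrays, in which the brightness of a probe stands for the amount of its transcript. Values are log2 signals relative to the 75th percentile of the probes on the same array, so that 0 is the signal of that percentile, which lay between 499 and 614 intensity units. Between 56.0% and 56.7% of probes were well above background, and no spot was saturated. The technical SD given with a value was taken from the error that Feature Extraction reports for each spot, and it leaves out all variation between cultures. Since every condition rests on 1 array, no replicates and hence no tests exist for any of these differences, and their precision is limited by that number. All 8 T cell markers listed were well above background on every array, as were the 6 Th2 markers. Gata3 had log2 signals of 5.39 in the resting control, 5.22 in the resting treated, 5.87 in the restimulated control and 5.83 in the restimulated treated cells. Of the markers of other cells, the NK cell genes Ncr1, Klrb1c, Klra8 and Klri2 were on no array well above background. The NK cell markers Nkg7 and Klrd1 were so on all 4 arrays, and Tyrobp on 1. Of 7 myeloid markers, Csf1r, Adgre1, Cd14 and Fcgr3 were well above background on all 4 arrays and Lyz2, Itgam and Itgax on none. Their summed signal relative to the 75th percentile was between 2.52 and 3.05. Fcgr3 was lower with SH-2251 by 2.72-fold at rest and 2.16-fold after restimulation. A model-based background correction (normexp) ended these calls, at 0.15 and -0.51 on the log2 scale. With all spots in its fit, normexp gave 694 genes at least 2-fold higher with SH-2251 at rest. It gave 122 without spots of uneven background. This short name covers spots of uneven background or uneven signal, and those dimmer than their local background. The part of these other cells in the values below was not tested. The bulk signal of a gene cannot tell fewer expressing cells from less RNA per cell.

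Of the 9 regulators, 7 were well above background on all 4 arrays, Foxp3 was so on 3 and Eomes on 2. In the resting cells Ahr alone, 1 of 9, was lower by 2-fold or more under SH-2251, where 2.9% of 12683 genes were that much lower. None was higher by that much, where 2.22% of all genes were. In the restimulated cells none passed 2-fold in either direction, against 2.78% of 12622 genes lower and 2.65% higher. Restimulation separated the regulators more. In the control cells Tbx21 and Bcl6 were at least 2-fold higher and Rora at least 2-fold lower among 8 that could be compared, where 7.2% of 12757 genes were higher and 7.34% lower. In the treated cells Tbx21, Bcl6 and Ahr were higher and Rora lower among 9, where 7.09% of 12613 genes were higher and 6.98% lower. The median difference between treated and control cells over the regulators was -0.18 in the resting and 0.02 in the restimulated state, compared with -0.055 and -0.063 over all genes. That between restimulated and resting cells was 0.01 in the control and 0.30 in the treated cells, compared with -0.064 and -0.051.

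**Figure D1:**
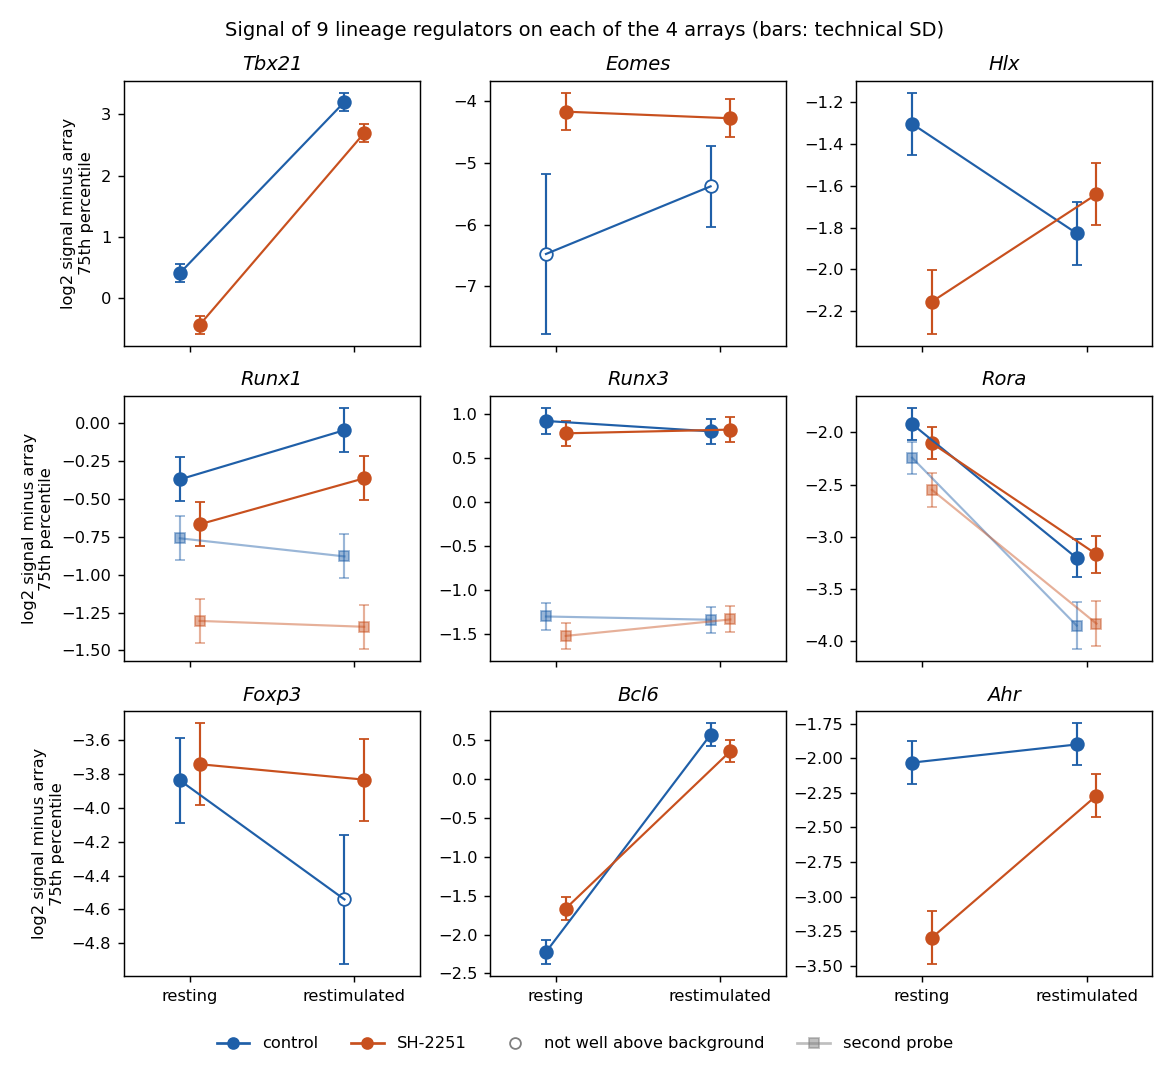
Log2 signal minus the array's 75th percentile (vertical axes, a separate scale for each gene) of the 9 regulators in resting and restimulated cells, with 1 array per point, control cells in blue and SH-2251-treated cells in orange. Bars are technical SDs, open circles were not well above background, and pale squares are second probes. Tbx21 and Bcl6 lie higher in both restimulated conditions, Rora lies lower in both, and the lines of Hlx cross.

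For Ahr no upstream sequence was at hand. The sequences upstream of the start sites are shown for other genes on which the results below turn. These are Tbx21 and Bcl6, which were higher after restimulation, Rora, which was lower, and Hlx, which moved in opposite directions. Each sequence is the 250 bases before a start site in RefSeq on mouse assembly GRCm38.p6, written 5′ to 3′ along the gene's strand. Capitals mark the motif matches described after the sequences. The Tbx21 window is chr11:97115332-97115581, minus strand, those of Bcl6, which has 2 starts, are chr16:23988853-23989102 and chr16:23981284-23981533, minus strand, that of Rora is chr9:68653536-68653785, plus strand, and that of Hlx is chr1:184732494-184732743, minus strand.
Tbx21: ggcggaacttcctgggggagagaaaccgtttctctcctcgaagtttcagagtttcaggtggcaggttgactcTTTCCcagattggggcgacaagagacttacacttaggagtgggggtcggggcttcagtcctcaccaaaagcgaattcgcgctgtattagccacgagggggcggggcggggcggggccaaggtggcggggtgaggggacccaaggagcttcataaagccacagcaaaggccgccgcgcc
Bcl6, start 1: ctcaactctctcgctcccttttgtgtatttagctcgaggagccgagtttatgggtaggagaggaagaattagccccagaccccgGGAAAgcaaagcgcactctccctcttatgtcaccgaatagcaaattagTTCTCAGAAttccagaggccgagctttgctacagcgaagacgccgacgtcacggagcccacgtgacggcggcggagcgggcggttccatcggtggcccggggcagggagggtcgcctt
Bcl6, start 2: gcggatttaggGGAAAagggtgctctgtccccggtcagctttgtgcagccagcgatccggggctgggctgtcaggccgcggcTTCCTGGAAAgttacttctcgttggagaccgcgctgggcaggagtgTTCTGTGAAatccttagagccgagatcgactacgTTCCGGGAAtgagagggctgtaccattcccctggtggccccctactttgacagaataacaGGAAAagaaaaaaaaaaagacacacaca
Rora: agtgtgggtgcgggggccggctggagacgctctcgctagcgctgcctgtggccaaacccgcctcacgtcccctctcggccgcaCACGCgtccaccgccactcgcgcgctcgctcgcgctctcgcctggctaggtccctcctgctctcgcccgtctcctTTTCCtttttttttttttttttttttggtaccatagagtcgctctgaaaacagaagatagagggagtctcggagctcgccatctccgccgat
Hlx: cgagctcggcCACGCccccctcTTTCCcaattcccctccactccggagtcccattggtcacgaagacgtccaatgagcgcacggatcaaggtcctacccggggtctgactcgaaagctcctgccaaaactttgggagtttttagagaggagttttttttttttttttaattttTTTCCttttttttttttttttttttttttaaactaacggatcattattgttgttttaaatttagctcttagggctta

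Windows were at hand for 8 of the regulators, all but Ahr, 12 windows in all, and were searched on both strands. The core of the NFAT site, GGAAA, occurred in 9 of the 12 windows and in 55.57% of all 32851 windows. NFAT is the calcium-dependent factor activated through the T cell receptor. Tbx21, Bcl6, Rora and Hlx each had at least 1 match. The STAT letters TTCNNNGAA were present in 3 of the 12 windows and in 7.02% of all windows. Start 2 of Bcl6 held 3 of them, at -168, -122 and -88 from the start, and the first overlaps 1 of its 3 NFAT cores. The AhR core GCGTG was found in 5 windows, the EGR letters GCGNGGGCG in 2, the RUNX letters TGTGGT in 1 and the ROR core AGGTCA in 1, compared with 28.16%, 4.7%, 14.05% and 14.02% of all windows. No window held the AP-1 letters TGANTCA, a 10-letter NF-kB consensus or the T-box letters AGGTGTGA, which 6.75%, 1.41% and 1.12% of all windows hold. These matches describe the letters and do not show binding.

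Tbx21 (NM_019507) encodes T-bet, the factor that defines Th1 cells. Its log2 signal was 0.41 in the resting control cells, -0.43 in the resting treated cells, 3.20 in the restimulated control cells and 2.69 in the restimulated treated cells. Both restimulated arrays were above both resting arrays, and within each state the treated array was the lower. After restimulation the signal was 6.89-fold higher in the control cells (log2 difference 2.79, technical SD 0.204) and 8.71-fold higher in the treated cells (3.12, technical SD 0.205). With SH-2251 the difference was -0.84 at rest (technical SD 0.205) and -0.51 after restimulation (technical SD 0.204), so that 55.7% and 70.4% of the control signal were left. Each gap between neighbours in the order of the 4 values was over 2 technical SDs. Neither difference with SH-2251 reached 2-fold.

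Hlx (NM_008250) encodes a homeobox protein that is induced by T-bet and acts with it on the Ifng gene. Its log2 signals were -1.30, -2.15, -1.83 and -1.64 in the resting control, resting treated, restimulated control and restimulated treated cells. The resting control array was the highest and the resting treated array the lowest, and no neighbours in the order were as much as 2 technical SDs apart. The difference with SH-2251 was -0.85 (technical SD 0.213) in the resting cells, where 55.4% of the control signal was left, and 0.19 (technical SD 0.212) in the restimulated cells. Restimulation gave -0.53 in the control and 0.51 in the treated cells. The resting and restimulated differences with SH-2251 were 1.04 apart (technical SD 0.301), which made Hlx the only regulator of 7 past 1 log2 unit, where 1.22% of 11518 genes measured on all 4 arrays passed it. Under normexp the resting difference was -0.10, this gap was 0.21 and the change on restimulation of treated cells was -0.12. Under normexp fitted without spots of uneven background the resting difference was -0.61, the gap 0.71 and the change in treated cells 0.39. Changes on restimulation that opposed each other by over 2 technical SDs each were seen in 0.165% of those genes.

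Eomes (NM_010136) encodes eomesodermin, a T-box relative of T-bet known for its role in CD8 T cells and NK cells. Its log2 signal was -4.17 in the resting treated and -4.27 in the restimulated treated cells, close to the lowest signals that were well above background. On the resting and restimulated control arrays, at -6.47 and -5.38, it was not well above background. The signal with SH-2251 was therefore at least 1.47-fold higher in the resting and at least 1.30-fold higher in the restimulated cells, bounds that lay within the technical SDs of 1.33 and 0.726 on the log2 scale. Of the other 15 T-box genes listed, 11 were on no array well above background, and none of those compared was 2-fold higher or lower.

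Runx3 (NM_019732) and Runx1 (NM_009821) encode DNA-binding RUNX factors, of which Runx3 acts with T-bet at Ifng and silences Il4 and Cd4 in Th1 and CD8 T cells, and Runx1 is needed in T cell development and binds Foxp3. Runx3 had log2 signals of 0.92, 0.78, 0.80 and 0.82 in the resting control, resting treated, restimulated control and restimulated treated cells. Its 4 values spanned 0.14, and each of its 4 differences was within its technical SD. The dimmer Runx3 probe gave -1.30, -1.52, -1.34 and -1.33. The differences with SH-2251 at this probe were -0.22 (technical SD 0.210) and 0.003. Runx1 had log2 signals of -0.37, -0.67, -0.04 and -0.36 on the same 4 arrays. No neighbours in this order were 2 technical SDs apart. It was lower with SH-2251 in both states, by -0.30 (technical SD 0.206) and -0.32 (technical SD 0.205). A second Runx1 probe (NM_001111023) gave -0.76, -1.31, -0.88 and -1.34, with differences of -0.55 (technical SD 0.207) and -0.47 (technical SD 0.207). The probes were both lower with SH-2251 and differed in sign on restimulation in the control cells, at 0.33 and -0.12. Cbfb, which encodes a partner of RUNX proteins, differed by 0.11 and 0.14 with SH-2251.

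Beside these regulators of the Th1 and CD8 fates, 4 of 19 Th1 genes compared were at least 2-fold lower with SH-2251 in the resting and 4 of 19 in the restimulated cells, and none was higher in either state. The list median was -0.27 and -0.29, compared with -0.055 and -0.063 over all genes. Of all genes, 2.9% at rest and 2.78% after restimulation were that much lower, and 2.22% and 2.65% higher. These shares also apply beside the lists below. Ifng, the Th1 cytokine, had log2 signals of -0.58, -1.04, 5.34 and 3.70 in the resting control, resting treated, restimulated control and restimulated treated cells. This was a difference with SH-2251 of -0.46 in the resting cells and of -1.64 in the restimulated cells. Ccl5, a chemokine made by effector T cells, was lower by 5.16-fold and 3.30-fold in the resting and restimulated cells. Gzmb, a cytotoxic granule protease, was lower by 4.59-fold and 1.92-fold. Of 7 genes of the CD8 and NK lineages compared, 2 were at least 2-fold lower and 1 higher at rest, and 2 were lower and none higher after restimulation. Among the lower ones was Gzma, another granule protease, at 3.43-fold and 3.30-fold.
Cd8a, which marks CD8 T cells, had log2 signals of -3.53 and -2.82 in the resting and restimulated control cells and of -2.07 and -1.85 in the treated cells. It was the only CD8 T cell marker measured here, and SH-2251 cultures had 2.73-fold and 1.96-fold more of it, which normexp without spots of uneven background brought to log2 differences of 0.72 and 0.53. Of 7 NK cell markers, 2 to 3 were well above background on each array. The summed signal of the markers relative to the 75th percentile was 1.95 and 1.88 in the resting control and treated cells. It was 4.54 and 3.93 in the restimulated ones. Most of this sum was Nkg7, which is also among the Th1 genes. Nkg7 had log2 signals of 0.75 and 0.68 in the resting control and treated cells and 2.10 and 1.84 in the restimulated ones. Klrd1 had -2.40 and -2.35, then -2.67 and -2.06. The part of other cells in the Th1 and CD8 gene values was not tested.

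Rora (NM_013646) encodes RORα, which contributes to the Th17 fate and is also present in Th2 cells and innate lymphoid cells. Its log2 signals were -1.92 and -2.10 in the resting control and treated cells and -3.20 and -3.17 in the restimulated control and treated cells. Both resting arrays were above both restimulated arrays, and the members of each pair were within their technical SD. The signal was 2.43-fold lower after restimulation in the control cells (log2 difference -1.28, technical SD 0.234) and 2.09-fold lower in the treated cells (-1.06, technical SD 0.232). A second Rora probe gave -1.61 (technical SD 0.272) and -1.28 (technical SD 0.270). Normexp without spots of uneven background left -0.70 and -0.65 at the brighter probe, which is below 2-fold. The differences with SH-2251 were -0.18 at rest (technical SD 0.214) and 0.04 after restimulation (technical SD 0.251). Rorb, a relative known from the nervous system, was on no array well above background.

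Ahr (NM_013464) encodes the aryl hydrocarbon receptor, a ligand-activated factor known for supporting IL-22 and IL-17 production. It was the only regulator spotted 10 times, and 8 to 10 of these spots per array were used, with an SD between spots of 0.05 to 0.13. Its log2 signals were -2.03 in the resting control, -3.30 in the resting treated, -1.90 in the restimulated control and -2.27 in the restimulated treated cells. The resting treated array stood apart as the lowest, over 4 technical SDs under its neighbour, and the other 3 arrays lay within 2 technical SDs of their neighbours. With SH-2251 the signal was 2.40-fold lower in the resting cells (log2 difference -1.26, technical SD 0.245), where 41.6% was left, and this ranked 167 among the decreases of 11874 genes. In the restimulated cells the difference was -0.37 (technical SD 0.217). Restimulation gave 0.13 (technical SD 0.215) in the control and 1.03 (technical SD 0.246) in the treated cells. The latter, near 2-fold, fell to between 0.80 and 0.99 when arrays were centred on the median or quantile normalized, when the authors' processed values were used or when outlier spots were kept. Under normexp the resting difference with SH-2251 was 0.05 and, without spots of uneven background, -0.77.
Of 9 genes on the arrays listed for the receptor, Cyp1a1 and Cyp1b1 were among the 3 that no array showed well above background. The list holds targets and also Arnt, the receptor's partner, which was among the genes compared. Of the listed genes compared, 1 of 5 in the resting and 1 of 6 in the restimulated cells passed 2-fold upwards with SH-2251 and none downwards. The higher gene was Nqo1, a quinone reductase, at 2.69-fold and 3.81-fold, with log2 differences of 0.72 and 0.84 when normexp left out spots of uneven background. Ahrr, the repressor of the receptor and a target of it, differed by -0.58 and -0.54, and Tiparp, an ADP-ribosyltransferase, by -0.69 and -0.60. The resting difference of Ahrr was 0.45 under normexp.

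Th17 genes went both ways. At rest, 2 of the 10 compared were lower by 2-fold or more under SH-2251 and 1 was higher. After restimulation it was 3 and 1 of 14, and the medians were -0.14 and 0.15. Il17a, the cytokine that names the lineage, was well above background only after restimulation, at -1.93 in the control and -2.12 in the treated cells. Il17f, its close relative, was at -1.57 and -0.73, which was 1.79-fold higher with SH-2251. Il21, a cytokine of Th17 and follicular helper cells, had log2 signals of 1.48 and -0.77 in the restimulated control and treated cells, a 4.74-fold lower signal with SH-2251. In the resting cells it was at least 3.11-fold lower, a bound that normexp brought to 0.

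Foxp3 (NM_054039) encodes the factor that regulatory T cells depend on. Its log2 signals were -3.84 and -3.74 in the resting control and treated cells and -3.83 in the restimulated treated cells. In the restimulated control cells, at -4.54, it was not well above background. The resting difference with SH-2251 was 0.095 (technical SD 0.347), although normexp gave 0.99 with all spots and 0.01 once spots of uneven background were left out. The 3 measured arrays lay within their technical SD of each other. The restimulated signal was 1.63-fold higher with SH-2251, a log2 difference of 0.71 with a technical SD of 0.454 that was 0.15 under normexp. This difference used the control array's own dim value.
Genes of regulatory T cells did not move in 1 direction with SH-2251. At rest 4 of 14 were lower by 2-fold or more and 2 were higher, and after restimulation these numbers were 3 and 2 of 14, with medians of -0.24 and -0.04. Itgae, which encodes the CD103 integrin chain, had log2 signals of -1.21 and -1.20 in the resting and restimulated control cells and of 3.33 and 3.69 in the treated cells. Ikzf2, which encodes Helios, was 2.39-fold higher in the resting and at least 2.64-fold higher in the restimulated cells at its brightest probe, whereas the mean of its probes gave a log2 difference of 0.40 and no bound above 0. Il10, an anti-inflammatory cytokine also made by Th2 cells, was lower by 3.27-fold and 1.98-fold, and Gpr83, a G protein-coupled receptor, by 2.72-fold and 3.15-fold. Il2ra, the high-affinity IL-2 receptor chain, differed by -0.36 and 0.04.

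Bcl6 (NM_009744) encodes a transcriptional repressor that defines follicular helper T cells and germinal centre B cells. Its log2 signal was -2.23 in the resting control cells, -1.67 in the resting treated cells, 0.57 in the restimulated control cells and 0.36 in the restimulated treated cells. Both restimulated arrays were above both resting arrays, and the treated array was the higher when resting and the lower when restimulated. The restimulated arrays were about 1 technical SD apart and the resting ones over 2. After restimulation it was 6.96-fold higher in the control cells (log2 difference 2.80, technical SD 0.213) and 4.07-fold higher in the treated cells (2.02, technical SD 0.208). Under normexp these log2 differences were 2.21 and 1.27, and without spots of uneven background 2.21 and 1.69. The difference with SH-2251 was 0.56 at rest (technical SD 0.217) and -0.21 after restimulation (technical SD 0.204), so that the restimulated minus the resting difference was -0.77 (technical SD 0.298). Normexp gave 0.81 at rest, and 0.39 without spots of uneven background.
Among follicular helper genes 2 of 14 were lower by 2-fold or more under SH-2251 at rest and none higher, and after restimulation 1 of 14 was lower and 1 higher, with medians of -0.21 and -0.07. Pdcd1, which encodes the inhibitory receptor PD-1, was lower by 2.15-fold and 1.77-fold. Cxcr5, the receptor that guides these cells to follicles, differed by -0.71 and -0.06, and Cd200, a membrane ligand, by 0.86 and 0.55. Prdm1, which encodes Blimp-1, the repressor that opposes Bcl6, differed by -0.39 and -0.18. Of 8 B cell markers, 5 were well above background on every array, and Pax5, Blk and Ebf1 on none. Their summed signal relative to the 75th percentile was 4.71 and 5.40 in the resting control and treated cells and 3.79 and 5.83 in the restimulated control and treated cells, and their part in the Bcl6 values was not tested.

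**Figure D2:**
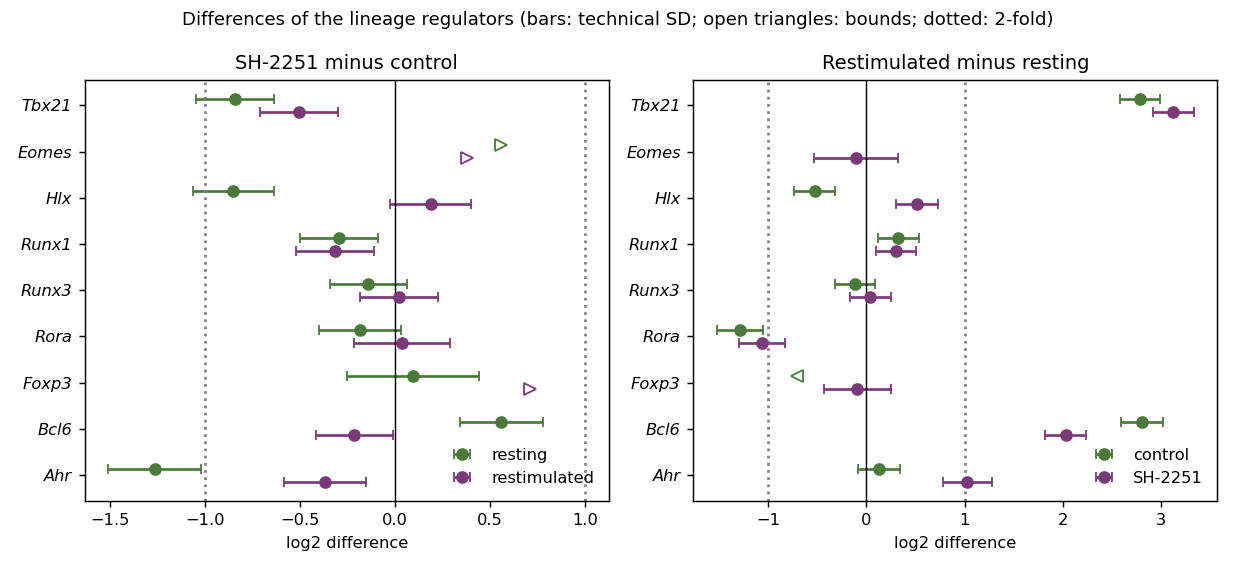
Log2 differences (horizontal axes) of each regulator with SH-2251 (left, by state) and on restimulation (right, by treatment), from 1 array per condition. Bars are technical SDs, triangles are bounds (for Foxp3 plain differences from a dim array), and dotted lines mark 2-fold. Ahr in the resting cells is the only point past 2-fold on the left, and Tbx21, Bcl6 and Rora are past it in both treatments on the right.

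Compared with each other, the 7 regulators measured on all 4 arrays did not follow a single pattern with SH-2251. In both states 3 of them, Tbx21, Runx1 and Ahr, were lower and none was higher, where 46.3% of 11518 genes were lower and 30.8% higher in both states by any amount. Rora, Runx3 and Hlx were lower in the resting and above 0 in the restimulated cells, with only the resting difference of Hlx beyond 2 technical SDs. Tbx21 and Bcl6 were at least 2-fold higher on restimulation in both treatments, where 5.03% of these genes were. Bcl6 alone was higher with SH-2251 when resting and lower when restimulated. The responses of Tbx21 and Bcl6 to restimulation in the control cells were nearly the same size, ranking 78 and 75 among the increases of 11855 genes. In the treated cells they ranked 75 and 201 among 11766.

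**Figure D3:**
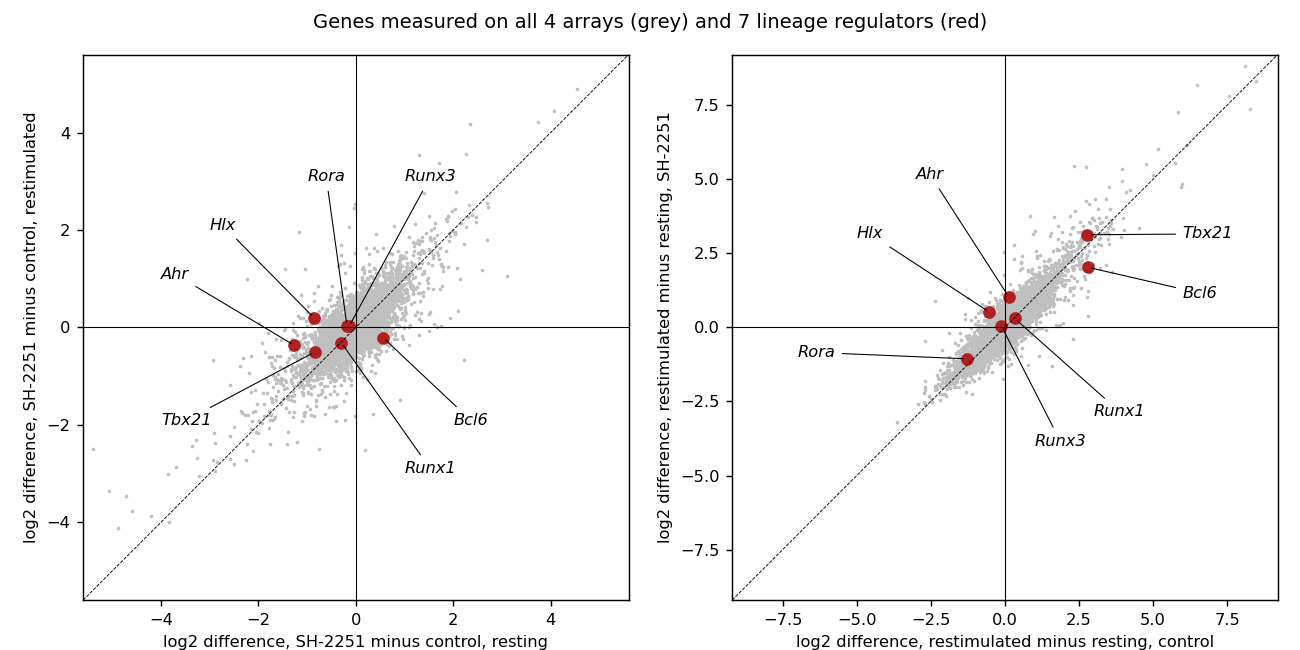
Each grey point is 1 of 11518 genes measured on all 4 arrays, and the 7 regulators are in red. The left panel sets the log2 difference with SH-2251 in restimulated cells (vertical axis) against that in resting cells (horizontal axis), and the right panel sets the log2 difference on restimulation in treated cells against that in control cells. Tbx21 and Bcl6 lie at the upper right of the right panel and Rora at its lower left. Hlx and, near the origin, Runx3 lie in the quadrant of opposite signs in both panels.

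For the regulators whose 4 values spanned at least 1 log2 unit, the genes with the most similar course over the 4 conditions were sought among 11517 others, by the Euclidean distance between the values after each gene's own mean was removed. The nearest to Tbx21 were Trib1, a pseudokinase gene, at a distance of 0.152 log2 units and Fam83g at 0.245. Trib1 had differences of -0.76 and -0.33 with SH-2251 and of 2.81 and 3.24 on restimulation. Nearest to Bcl6 were Perp, a desmosomal membrane protein gene, at 0.126, and Zfp36l1, an RNA-binding protein gene, at 0.202. Rora was closest to Mgat1, an enzyme gene of N-glycan synthesis, at 0.047 and to Prr36 at 0.052. For Ahr they were Fos, a component of AP-1, at 0.146 and Armcx4 at 0.168. Fos was lower with SH-2251 by -1.23 in the resting and -0.51 in the restimulated cells. With 4 points, closeness of this kind is a description of these arrays.

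**Figure D4:**
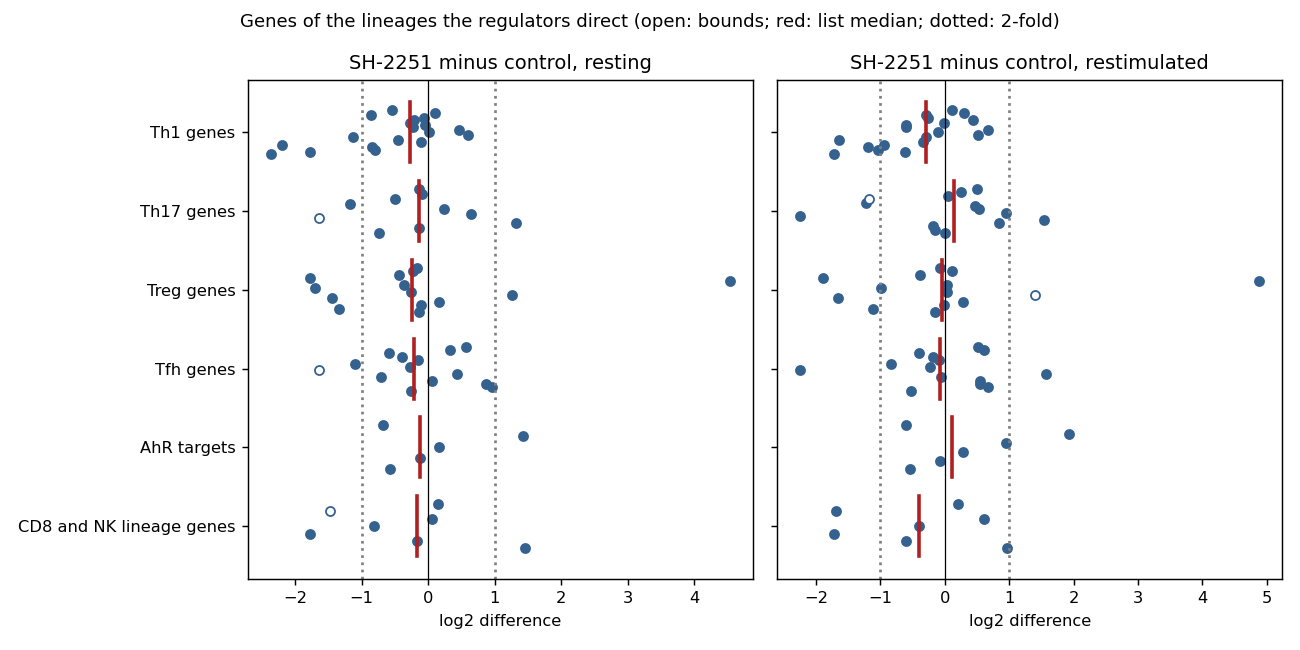
Log2 differences with SH-2251 (horizontal axes) of genes of 6 lineage or target lists in resting (left) and restimulated cells (right), 1 point per gene and 1 array per condition. Open points are bounds, red bars are list medians and dotted lines mark 2-fold. Th1 genes have 4 points below 2-fold and none above it in either state, and the point far to the right among regulatory T cell genes is Itgae.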

How the data were processed

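Total RNA was labelled with Cy3 and hybridised to Agilent whole mouse arrays on 1 slide, read in 1 scan. The authors deposited scanner intensity values from Feature Extraction 10.7 (10.7.3.1 in the file headers), corrected there for background, and a table of log2 values that they normalized with the Subio Platform. These log2 values equal the log2 intensity minus the array's 75th percentile within 0.01 for 99.6% to 99.7% of probes. The array design is on mm9.

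From the intensities, spots marked as outliers (77 to 106 per array) were left out, spots of a probe were averaged, and the 75th percentile was subtracted. Probes were named through RefSeq accessions and a table for GRCm38.p6, and 27198 of 41174 matched. The brightest probe stands for a gene. A gene was compared if well above background on at least 1 array of a pair. Where it was so on 1, the dim array took the lowest signal that was well above background there, or its own if brighter. The difference is marked as a bound (0 where it crossed 0), though with the array's own signal it is a plain difference. Named were all 9 regulators, up to 4 genes past 2-fold per list with the largest differences, defining genes of each lineage, and the 2 nearest patterns. The regulators, the 20 lists and the promoter motifs were chosen with earlier results of these data known. Normexp (offset 50) was made on median spot signals, with all spots unless stated. The version called without spots of uneven background also left out spots of uneven signal and those dimmer than their local background. For some list genes the value of only 1 version is given. The procedure was tested on simulated data. Some genes of the lists are not reported here. Tools were limma 3.58.1 in R 4.3.3, and numpy 2.4.6, pandas 2.3.3 and matplotlib 3.10.9 in Python 3.11.15.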

Additional observations from a re-analysis of the deposited data

Results flagged for a closer look

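Hlx moved in opposite directions on restimulation in the 2 treatments. Its log2 difference between restimulated and resting cells was -0.53 in the control cells and 0.51 in the SH-2251-treated cells, each over 2 technical SDs (0.211 and 0.214) from 0. It was selected because the single arrays of the 2 treatments moved opposite ways, and the difference between the treatments was not tested, since each condition has 1 array. Under normexp the value in the treated cells was -0.12, which has the sign of the control cells. Without spots of uneven background normexp gave 0.39 in the treated and -0.33 in the control cells.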

How the results depend on the processing

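No paired analysis was possible because each condition has 1 array. The differences of the regulators moved by less than their technical SD with median centring, quantile normalization, the authors' processed values or outlier spots kept (42 of 42 each). With both arrays required above background 38 of 38 stayed the same. That was fixed in advance, since this filter drops differences and changes none. The cause of those that moved elsewhere was not tested. The mean of all probes moved 1 of 42, Runx1 on restimulation of control cells, to 0.10. Under normexp 17 of 42 moved, and 2 more that were past 2-fold without it changed sign. These were Ahr in the resting cells with SH-2251 (0.051) and Ahr on restimulation of treated cells (-0.22). Smaller differences changed sign as well, among them Hlx on restimulation of treated cells (-0.12) and Rora in the resting cells with SH-2251 (0.31). The regulators past 2-fold were then 0 lower and 1 higher (Eomes) with SH-2251 when resting, 0 lower on restimulation of control cells and 3 lower (Rora, Eomes and Foxp3) of treated cells, and 0 had differences with SH-2251 over 1 log2 unit apart. Normexp without spots of uneven background, chosen after seeing the data, moved 11 of 42 and gave 0 lower with SH-2251 when resting, 0 lower on restimulation of control and 0 of treated cells, and 0 differences that far apart. With neither filter nor bound, 1 was higher with SH-2251 in either state (Eomes), and 2 had differences that far apart. At 1.5-fold, 3 were lower with SH-2251 when resting, 1 higher when restimulated and 2 lower on restimulation of control cells. At 3-fold 0 were lower with SH-2251 when resting or on restimulation of control or treated cells.
Over the alternatives the count of all genes at least 2-fold lower with SH-2251 ran from 162 to 798 at rest and from 159 to 950 after restimulation, and that of genes higher from 122 to 694 and from 149 to 678. After restimulation, between 443 and 1395 were lower and 627 to 1361 higher in control cells, and 443 to 1512 lower and 660 to 1308 higher in treated cells. Normexp with all spots gave 162 lower and 694 higher with SH-2251 at rest, compared with 189 and 122 without spots of uneven background. On restimulation of treated cells it gave 1512 lower, compared with 443. Quantile normalization moved the median of all genes to -0.11 in both restimulation comparisons. Signal over background limits Eomes and Foxp3, whose technical SDs reached 1.33 and 0.458, compared with 0.204 for Tbx21.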

Other observations

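Several family relatives of the regulators passed 2-fold with SH-2251. Runx2, a RUNX factor best known from bone, had log2 signals of -1.48, -3.63, 0.03 and -0.56 in the resting control, resting treated, restimulated control and restimulated treated cells, which is 4.44-fold lower with SH-2251 in the resting and 1.51-fold lower in the restimulated cells. Its resting difference of -2.15 was -0.40 under normexp, whose resting comparison depended on which spots were in its fit. Among 7 forkhead genes compared besides Foxp3, Foxj1 was 4.45-fold lower at rest and at least 2.27-fold lower after restimulation, and was 0.09 on the log2 scale in the resting cells under normexp. Foxp1, named after its value was seen, was the forkhead gene at least 2-fold higher after restimulation, by 2.02-fold, with 1.96-fold at rest, and its log2 difference after restimulation lay between 0.87 and 1.06 over the alternatives. Among POZ zinc finger genes related to Bcl6, 2 of 7 in the resting and 2 of 8 in the restimulated cells were at least 2-fold lower and none higher. These were Hic1, a transcriptional repressor gene, at -4.88 and -4.11, and Zbtb32, a repressor induced by activation, at -2.27 and -1.79. Zbtb7b, which encodes the CD4 lineage factor ThPOK, differed by 0.15 and 0.20.

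Of the Th9 genes listed, 2 of 4 compared were at least 2-fold lower in the resting cells, and 1 was lower and 1 higher of 5 in the restimulated cells. Il9, the cytokine that names the lineage, was well above background only in the restimulated treated cells, at -2.67, at least 3.96-fold higher than in the control, and leaving uneven spots out of normexp gave this bound as 0.64 on the log2 scale. Etv5, an ETS factor of this lineage, was 2.61-fold lower in the resting and 2.72-fold lower in the restimulated cells. Its resting treated signal was not well above background, and the array's own dim value was used. Under normexp the resting bound was 0 and the restimulated log2 difference -0.74.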
